A study of Mus musculus with 6 samples.

Results

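The vomeronasal receptor pseudogenes described here are the rows of the count table whose mouse symbol begins with Vmn1r or Vmn2r and carries the letters "ps", with Vmn2r-ps159 left out. The rule found 196 genes of 38561 in the table, 105 of the V1R family and 91 of the V2R family. Expression came from 6 RNA-seq libraries of vomeronasal organs, taken from males of the outbred CD-1 stock. In 3 of them (pup libraries) the males had been exposed to pups. The other 3 (control libraries) followed a control exposure that the labels leave undescribed, and no age, allele or other agent is stated for either group. All 6 libraries are immunoprecipitates, pulled down by an antibody against ribosomal protein S6 in its phosphorylated form, a mark that increases in recently active neurons. Nothing in the labels ties a library to its own animal, so the p-values speak to the variation among these libraries alone, and that variation may be technical. Fewer cells of a type and less RNA per cell cannot be told apart in such bulk material.

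The vomeronasal organ detects pheromones through 2 large families of receptors. V1R receptors, found in apical neurons that signal through Gnai2, are encoded by a single coding exon, and V2R receptors, found in basal neurons that signal through Gnao1, have a long extracellular part built from several exons. Each neuron expresses a single receptor or a few. Both families grew by repeated duplication, and many copies have lost their reading frame through deletions, insertions or early stop codons. Such copies stay in the receptor clusters as unprocessed pseudogenes, and some of them are still transcribed. A pseudogene in the reference strain can be intact in another strain, and the CD-1 sequence was not analysed here.

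Short stretches of 6 pseudogenes are shown first, each above the same stretch of its closest intact receptor (the best match by blastn). These stretches are examples of how the sequences differ and do not show how reads were told apart. All were copied from GENCODE M21 transcripts on GRCm38 and run 5′ to 3′ along the transcript. Vmn2r-ps53, the pseudogene with the most reads, has 4 frameshifts against Vmn2r53, the first of them the loss of a single base. The stretch lies in exon 3 of 5 at chr7:12460339-12460398 (plus strand). Capitals mark the base missing from the pseudogene, and in the pseudogene the pair of bases on either side of its place.
Vmn2r-ps53: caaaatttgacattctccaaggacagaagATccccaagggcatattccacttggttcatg
Vmn2r53: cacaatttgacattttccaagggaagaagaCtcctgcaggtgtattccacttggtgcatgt
Vmn1r-ps47, which had the smallest p of the tested pseudogenes, has 4 stop codons in the frame of Vmn1r185 and 13 frameshifts against it. The first of these breaks, a stop codon, is shown. The stretch lies in exon 3 of 3 at chr7:10281342-10281404 (minus strand). Capitals mark the stop codon and the codon aligned to it.
Vmn1r-ps47: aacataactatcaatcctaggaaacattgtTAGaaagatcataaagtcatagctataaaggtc
Vmn1r185: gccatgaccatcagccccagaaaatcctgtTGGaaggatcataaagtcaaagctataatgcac
Vmn2r-ps57, in contrast, has a stop codon as the sole break against the Vmn2r59 frame of 2598 bases. The stretch is in exon 3 of 6 at chr7:41968213-41968275 (minus strand).
Vmn2r-ps57: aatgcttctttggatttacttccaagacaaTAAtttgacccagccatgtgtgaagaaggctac
Vmn2r59: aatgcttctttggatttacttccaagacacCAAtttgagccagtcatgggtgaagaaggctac
Vmn1r-ps84 (chr7:23486493-23486552, minus strand, its only exon) lacks 7 bases of Vmn1r177, and Vmn2r-ps42 (chr7:8954397-8954456, minus strand, exon 6 of 6) lacks 50 bases of Vmn2r42. Capitals again mark the missing bases and the flanking pair.
Vmn1r-ps84: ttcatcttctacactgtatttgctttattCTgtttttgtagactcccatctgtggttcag
Vmn1r177: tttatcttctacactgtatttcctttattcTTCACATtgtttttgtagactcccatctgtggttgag
Vmn2r-ps42: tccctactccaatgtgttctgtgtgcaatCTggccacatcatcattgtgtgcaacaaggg
Vmn2r42: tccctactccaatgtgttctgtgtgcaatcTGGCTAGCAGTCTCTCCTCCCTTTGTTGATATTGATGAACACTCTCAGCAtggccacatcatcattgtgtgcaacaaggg
Vmn2r-ps60 is a fragment of 897 bases that matches the end of the Vmn2r60 reading frame, and its start is shown (chr7:42430665-42430724, minus strand). Capitals mark the 5 bases that differ.
Vmn2r-ps60: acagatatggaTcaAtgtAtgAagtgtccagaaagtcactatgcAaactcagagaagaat
Vmn2r60: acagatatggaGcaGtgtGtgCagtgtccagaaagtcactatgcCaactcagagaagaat
Vmn2r-ps42 was 99.9% identical to Vmn2r42 over 2509 aligned bases, whereas Vmn2r-ps53 was 92.3% identical to Vmn2r53 over 2347 bases and Vmn1r-ps47 was 76.9% identical to Vmn1r185 over 905 bases.

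Total counts were 10590716 to 11240065 in the control libraries and 18199476 to 20871266 in the pup libraries, so depth was separated by group. Libraries were scaled by edgeR's TMM factors (0.605 to 1.39), and counts on that scale are given as CPM (counts per megaread). As a check of the tissue, summed markers of mature vomeronasal neurons (6 of 7 list genes in the table, Trpc2 unmatched, all with reads) were at 1491 to 1593 CPM in the control libraries and 1351 to 1662 CPM in the pup libraries. Of the other cell types, sustentacular markers (5 of 5 with reads) were at 3851 to 4474 and 1547 to 2276 CPM, immature neuron markers (6 of 6) at 148 to 213 and 82.7 to 144 CPM, and red cell markers (5 of 5) at 205 to 591 and 52.6 to 168 CPM. The gland list (5 of 5) summed to 175003 to 662302 and 106493 to 346147 CPM. The part of these shifts in the values below was not tested.

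Most of the pseudogenes were not detected at this depth. Of the 196, 80 had at least 1 read over the 6 libraries (40.8%), 41 had at least 10 reads, and 116 had none. Without any single library the number with reads was 73 to 79. With every library brought to the lowest depth, 75.3 would be expected to have a read. A count of 0 in a library allows at most 0.144 to 0.283 CPM at the deposited totals (3 counts, counting error only). Among intact receptors, 240 of 285 had reads (84.2%), 123 of 164 V1R genes and 117 of 121 V2R genes. In the V1R family 35 of 105 pseudogenes had reads (33.3%), and in the V2R family 45 of 91 did (49.5%). The intact genes are also annotated with more exonic sequence, a median of 4486 bases against 897.

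**Figure D1:**
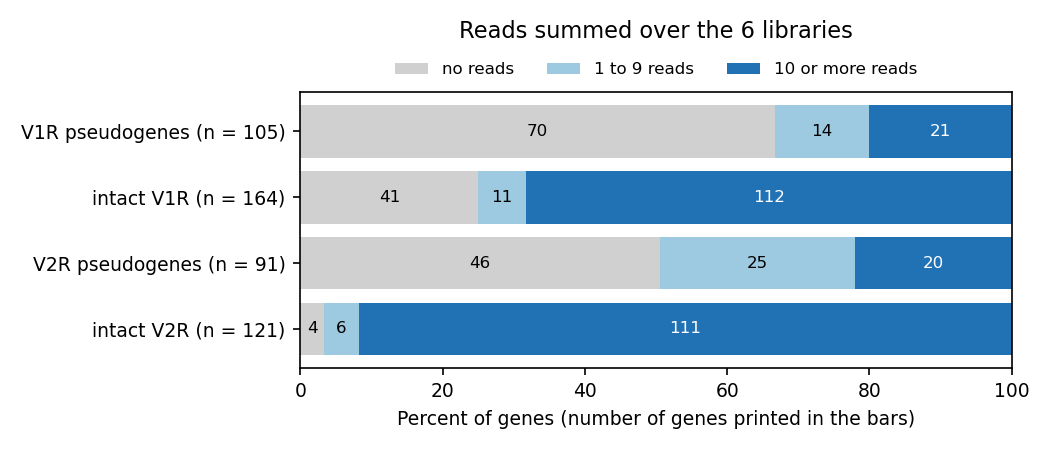
Share of genes with no reads, 1 to 9 reads and 10 or more reads summed over the 6 libraries, for pseudogenes and intact receptors of each family; the x axis is the percent of genes and the bars hold the number of genes. No reads were seen for 70 of 105 V1R and 46 of 91 V2R pseudogenes, against 41 of 164 and 4 of 121 intact receptors.

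By their medians, the pseudogenes with reads were longer and less diverged than those without. Of the 41 with 2000 or more exonic bases, 37 had reads (90.2%), and of the 155 shorter ones 43 had reads (27.7%). The median exonic length was 2410 bases for pseudogenes with at least 10 reads, 997 for those with 1 to 9 and 779 for those with none. Median identity to the closest intact reading frame was 93.2%, 91.6% and 86.4% in the same order, over whatever length aligned. The median length of the longest open reading frame was 759, 360 and 258 bases. These are descriptions across genes that share ancestry and clusters, without a test.

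**Figure D2:**
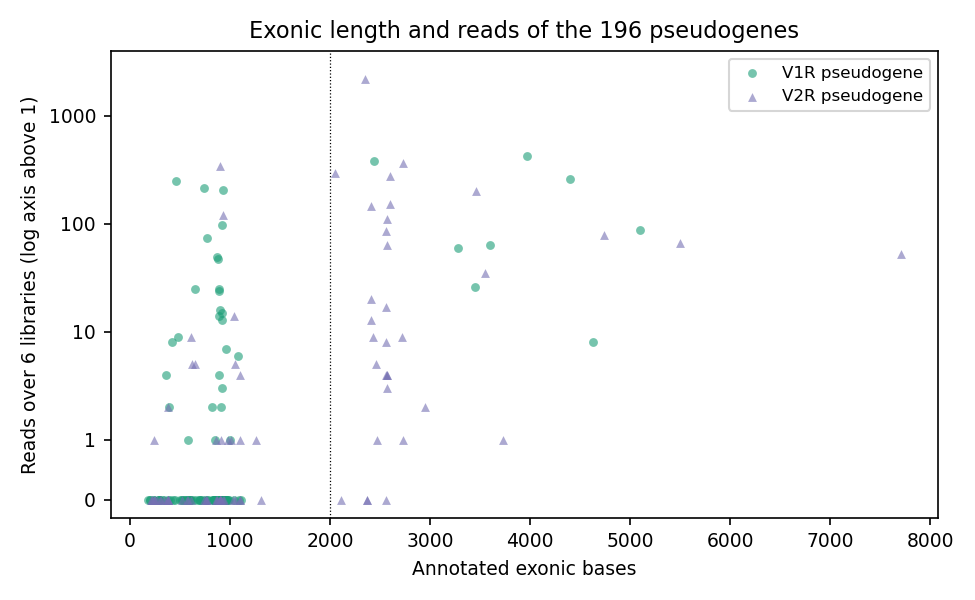
Annotated exonic bases (x axis) against reads summed over the 6 libraries (y axis, logarithmic above 1) for the 196 pseudogenes, V1R as circles and V2R as triangles, with a dotted line at 2000 bases. To the right of the line 4 of 41 lie at 0 reads, and to the left 112 of 155 do.

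The annotation class also ran with the reads. GENCODE calls 15 of the pseudogenes transcribed unprocessed pseudogenes, and all 15 had reads, 11 of them at least 10. Of 170 unprocessed pseudogenes without that label 60 had reads, and of 5 processed pseudogenes, which arise by retrotransposition, 0 did. In spite of their names, 3 genes (Vmn1r207-ps, Vmn2r-ps130 and Vmn1r239-ps) are annotated as protein-coding; the first had 262 reads, the second 52 and the last 0. The pseudogenes with reads lay on chromosomes 7 (33 of 83), 17 (15 of 30), 13 (15 of 32), 6 (8 of 24) and 3 (6 of 11), with single genes on chromosomes 4, 5 and 14.

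Undetected and detected copies lay at similar distances from intact receptors. The median gap to the nearest intact V1R or V2R gene was 26029 bases for pseudogenes with at least 10 reads and 23252 bases for those with none. The closest intact relative of an undetected pseudogene was itself mostly represented. It had a median of 423 reads over the 102 undetected pseudogenes whose relative is in the table. For pseudogenes with at least 10 reads the median was 335 over 36. A relative shared by several pseudogenes counts once for each of them.

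Reads can be assigned to the wrong copy where sequence is shared, and how the authors treated reads with several matches is not given in the sources used here. Each pseudogene's transcripts were therefore cut into words of 50 bases and looked up in the transcripts of all other genes. The median share of words found elsewhere was 23.8% for pseudogenes with at least 10 reads, 21.7% for those with 1 to 9 and 2.03% for those with none, among which 70 of 116 were under 10%. Of the 23 pseudogenes tested below, 4 shared under 10% of their words (Vmn1r-ps150 with 0%, Vmn1r-ps47, Vmn1r-ps27 and Vmn1r-ps144), and 6 shared 50% or more.

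Summed over the family, pseudogenes took 2.68% ± 0.237 of all vomeronasal receptor reads in the control libraries and 2.49% ± 0.996 in the pup libraries (SD, n = 3 each). Receptor reads here are those of the pseudogenes, the intact V1R and V2R genes and the formyl peptide receptors. The control libraries held 689, 767 and 393 pseudogene reads and the pup libraries 566, 3109 and 1650. The share was lowest in pup replicate 1 (1.40%, Wilson 95% interval 1.29% to 1.52%) and highest in pup replicate 2 (3.35%, 3.24% to 3.47%), so the values of the groups overlapped. Vmn2r-ps53 held 42.4% of the pseudogene reads in pup replicate 2 and 32.4% in pup replicate 3, so leaving it out lowers those shares by construction. Without that gene, left out after seeing the data, the share was 1.98% to 2.58% in the control libraries. In the pup libraries it was then 1.25% to 1.93%. The groups then did not overlap, by the narrow gap from 1.93% to 1.98%, and no other single gene was left out for comparison. The intervals cover counting error only. Pseudogenes under 10% shared words held 0.25% ± 0.071 and 0.39% ± 0.139 of receptor reads (SD, n = 3 each).

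A few pseudogenes held most of these reads. Vmn2r-ps53 alone had 2205 of 7174, or 30.7%, and the 10 with the most reads had 69.8%. Within libraries the part of Vmn2r-ps53 ran from 10.95% in pup replicate 1 to 42.4% in pup replicate 2. Per kilobase of exon, the order of the tested pseudogenes by mean level differed between the groups. In the control libraries Vmn2r-ps60 led with 6.57 CPM per kilobase, followed by Vmn1r-ps94 (4.25) and Vmn2r-ps53 (3.99). In the pup libraries Vmn2r-ps53 led with 10.8 CPM per kilobase, followed by Vmn1r-ps94 (5.82) and Vmn1r-ps150 (3.11), and Vmn2r-ps60 was at 2.53. These orders were not tested, and the spread between libraries is given below for all of these but Vmn1r-ps150. Vmn1r-ps94 lies wholly inside exons of Vmn1r188 on the same strand, so its level is uncertain. As means over all 6 libraries, Vmn2r-ps53 was at 7.41 CPM per kilobase and its intact relatives Vmn2r54 and Vmn2r53 at 5.50 and 3.18. Vmn1r66, the neighbour of Vmn1r-ps47, was at 2.64, and other intact receptors were higher, such as Vmn1r232 at 8.94. The division depends on the annotation, which gives Vmn2r53 22143 exonic bases and Vmn2r-ps53 2353. Before it, Vmn2r53 was at 70.5 CPM and Vmn2r-ps53 at 17.4 CPM.

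The comparison of pup with control exposure asked which of these copies changed in abundance in the immunoprecipitate with exposure to pups. The filter on low counts kept 23 of the 196 (11 V1R, 12 V2R), which carried 89.7% of the pseudogene reads. In edgeR's quasi-likelihood test none passed an adjusted p of 0.05 over the 15498 genes tested, 0 higher and 0 lower, and the smallest adjusted p was 0.447. That test called 0% of all genes higher and 0% lower. Without adjustment, 1 pseudogene had a p under 0.05 with a higher level and 0 with a lower one, where 6.31% of all genes tested did so upward and 4.67% downward. DESeq2 and limma-voom also called 0 in either direction. DESeq2 called 0.406% of genes higher and 0.626% lower but gave an adjusted p for just 6 pseudogenes. Before adjustment, its p was under 0.05 for 3 of the 80 pseudogenes with reads in the higher direction (4.85% of all genes) and 1 in the lower (4.69%). Limma-voom called 0.00645% of genes higher and 0.0452% lower. Before adjustment it had 0 of 23 pseudogenes higher (5.1% of all genes) and 1 lower (5.43%). Without the filter edgeR called 0 of the 80 pseudogenes with reads, against 0.255% of genes higher and 0.247% lower. Before adjustment 3 of those 80 were higher (5.88% of all genes) and 0 lower (4.1%). These 3, the same with DESeq2, included Vmn1r-ps100, which had 48 of its 49 reads in pup replicate 1. Of the 23, 13 had a positive fold change, where 51.5% of all genes did. Their median log2 fold change was 0.19, against 0.03 over all genes tested and 0.24 over 191 intact receptors. Precision was low: the median standard error of the log2 fold change was 1.10 for pseudogenes, 0.64 for intact receptors and 0.52 for all genes tested.

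**Figure D3:**
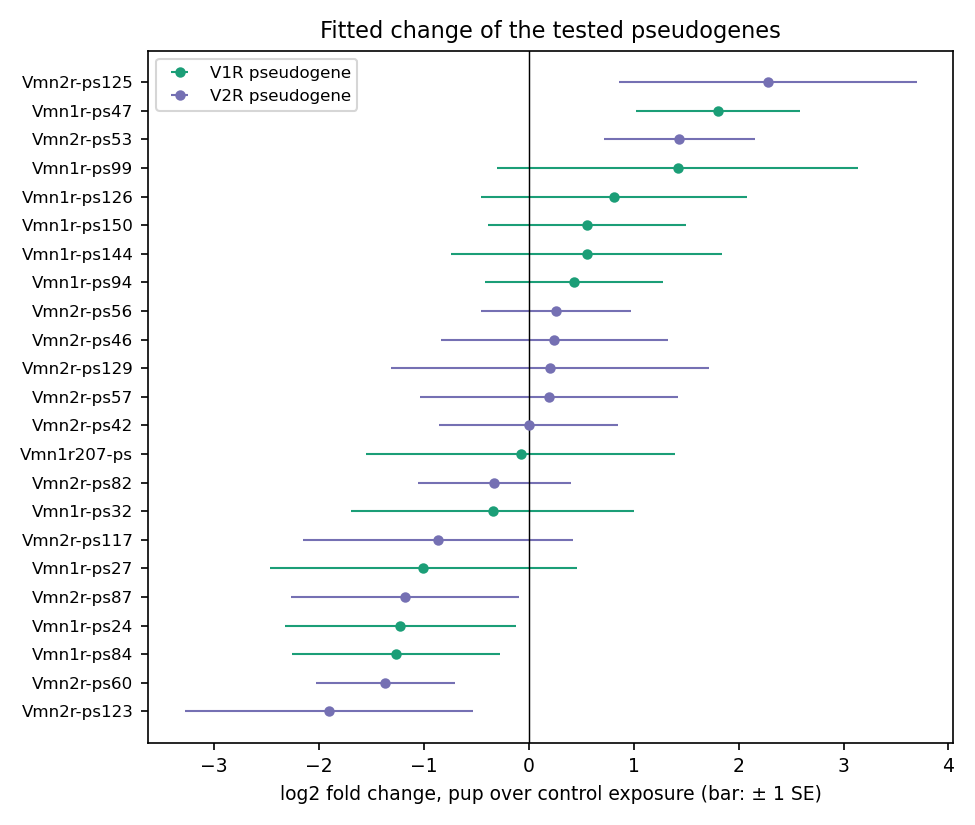
Fitted log2 fold change (x axis, pup over control exposure) with 1 standard error for the 23 tested pseudogenes, green for V1R and purple for V2R. Values run from -1.91 (Vmn2r-ps123) to 2.28 (Vmn2r-ps125), and 14 of the 23 have a standard error over 1.

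Vmn2r-ps53 (ENSMUSG00000092583, chr7:12445358-12468852, plus strand) is an unprocessed V2R pseudogene with 2353 exonic bases. It was at 7.13, 13.7 and 7.34 CPM in the control libraries and at 3.32, 46.7 and 26.4 CPM in the pup libraries. A pair of the pup libraries lay above every control library and the remaining library, replicate 1, below them all. The means were 9.40 ± 3.74 and 25.5 ± 21.7 CPM (SD, n = 3 each), and edgeR gave a log2 fold change of 1.44 (SE 0.72, adjusted p = 0.482). That value was 0.66 without pup replicate 2, 1.96 without pup replicate 1 and 0.87 with limma-voom. The intact relatives of Vmn2r-ps53 on the same chromosome had lower means in the pup libraries than in the control libraries. Vmn2r53, the closest, was at 60.8, 216 and 76.7 CPM in the control libraries and at 3.00, 37.0 and 29.9 CPM in the pup libraries. Every pup library of Vmn2r53 lay below every control library, yet within each group the libraries stood in the same order as for Vmn2r-ps53. Vmn2r53 had means of 118 ± 85.2 and 23.3 ± 17.9 CPM (SD, n = 3 each). Its log2 fold change was -2.34 (SE 0.76, edgeR adjusted p = 0.412). Vmn2r54, which shares 14.1% of the words of Vmn2r-ps53, was at 31.1 ± 8.79 and 15.8 ± 17.0 CPM (SD, n = 3 each). Its groups overlapped, with pup replicate 2 at 35.4 CPM and control replicate 1 at 22.7 CPM. Its log2 fold change was -0.98 (SE 0.65, edgeR adjusted p = 0.577). Whether the pseudogene differed from its relatives in its response was not tested.

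Vmn1r-ps47 (ENSMUSG00000093781, chr7:10278484-10286840, minus strand) is a transcribed V1R pseudogene whose 3′ end lies 478 bases from Vmn1r66. It was at 1.72, 1.08 and 1.56 CPM in the control libraries and at 2.04, 9.78 and 3.41 CPM in the pup libraries. Its lowest pup library was above its highest control library, as in 10.1% of all genes tested, and among the 23 pseudogenes it was the sole such case. In either direction 2 of the 23 had groups that did not overlap, where 19.8% of genes did. The means were 1.45 ± 0.338 and 5.07 ± 4.13 CPM (SD, n = 3 each), a fold of 3.49. The fitted log2 fold change was 1.80 (SE 0.78, edgeR adjusted p = 0.447). Without pup replicate 2 the log2 fold change was 0.91, and without pup replicate 1 it was 2.18. The neighbour Vmn1r66, an intact receptor on the same strand, was at 7.82 ± 4.76 and 12.7 ± 1.004 CPM (SD, n = 3 each). Its log2 fold change was 0.69 (SE 0.50, edgeR adjusted p = 0.599). Vmn1r-ps47 shared 1.18% of its words with other genes.

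Vmn2r-ps60 (ENSMUSG00000070621, chr7:42429828-42430724, minus strand), the single-exon fragment of a V2R gene, had the smallest p among pseudogenes with a negative fold change. It was at 6.11, 4.84 and 6.72 CPM in the control libraries and at 1.07, 3.65 and 2.08 CPM in the pup libraries. All pup libraries lay below all control libraries, as in 9.6% of genes tested, with means of 5.89 ± 0.958 and 2.27 ± 1.30 CPM (SD, n = 3 each). The log2 fold change was -1.37 (SE 0.66, edgeR adjusted p = 0.467). Its closest intact receptor, Vmn2r60, holds 20.3% of its words and was at 2.09 ± 0.655 and 5.43 ± 2.74 CPM (SD, n = 3 each). Its log2 fold change was 1.37 (SE 0.69, edgeR adjusted p = 0.484).

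**Figure D4:**
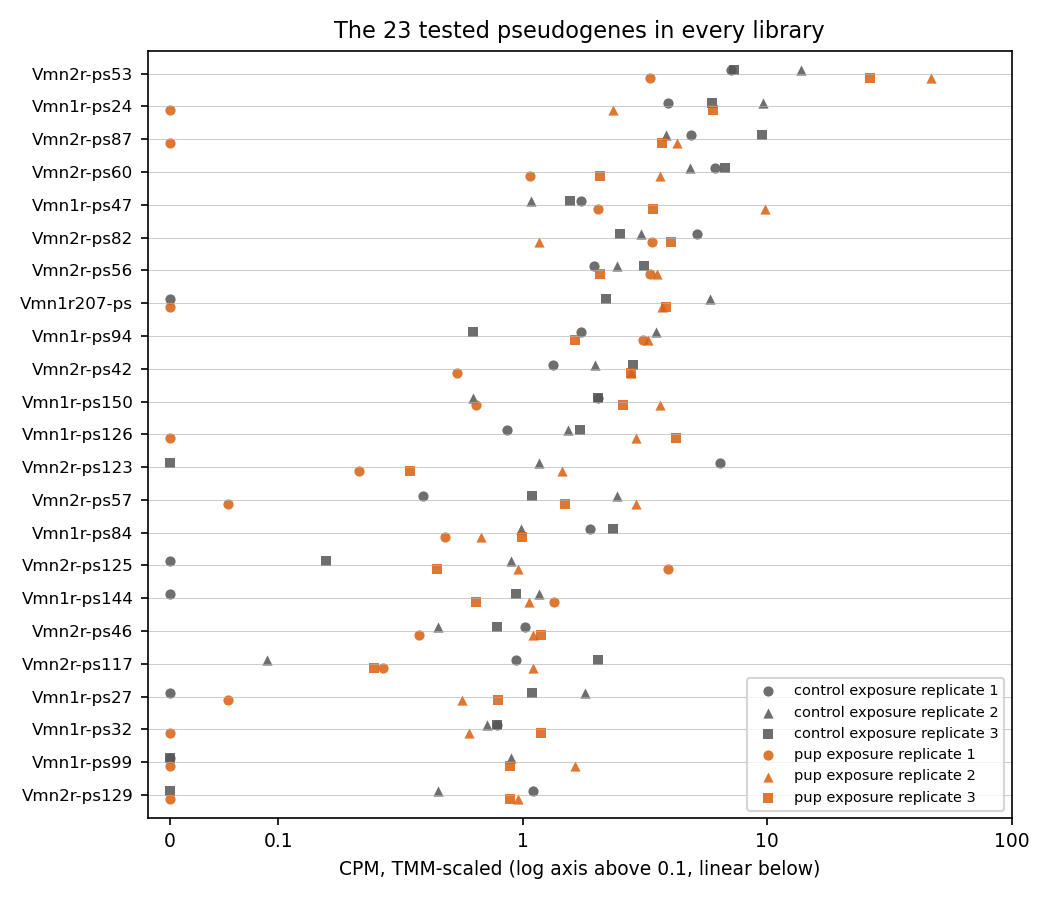
CPM of the 23 tested pseudogenes in every library (x axis, logarithmic above 0.1 and linear below), grey for control and orange for pup exposure, with a marker shape for each replicate number. Vmn2r-ps53 reaches 46.7 CPM, the highest value plotted, and 7 pseudogenes lie at 0 in pup replicate 1.

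Among the other V2R pseudogenes, Vmn2r-ps87 (chr7:86859326-86885740) was at 4.86, 3.86 and 9.53 CPM in the control libraries and at 0, 4.29 and 3.71 CPM in the pup libraries. Its fitted log2 fold change of -1.18 (SE 1.09, edgeR adjusted p = 0.684) was -0.59 without the pup library at 0 and -2.42 with limma-voom. Vmn2r-ps82 was at 5.17, 3.05 and 2.50 CPM and at 3.38, 1.17 and 4.05 CPM, with overlapping groups. Vmn2r-ps125 (chr17:19986868-19987798), a single-exon fragment related to Vmn2r104, had the highest fitted change, a log2 fold change of 2.28 (SE 1.42, edgeR adjusted p = 0.551). It was at 0, 0.897 and 0.156 CPM in the control libraries and at 3.91, 0.956 and 0.445 CPM in the pup libraries, so the change rested on 1 library and was 0.96 without pup replicate 1 and 4.70 without control replicate 2. Vmn2r-ps123 (chr17:19838565-19874206) had the lowest fitted change (-1.91, SE 1.37, edgeR adjusted p = 0.600), from 6.43, 1.17 and 0 CPM in the control libraries and 0.214, 1.45 and 0.346 CPM in the pup libraries. Without control replicate 1 it was 0.15, without pup replicate 2 -3.16, and with limma-voom -1.12.

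Vmn2r-ps42 and Vmn2r-ps56 show how close a pseudogene can stand to a receptor. Vmn2r-ps42 (chr7:8953109-8969976, minus strand) had 17, 22 and 18 reads in the control libraries and 10, 78 and 56 in the pup libraries. Vmn2r42, which holds 95.8% of its words, had 0 in every control library and 0, 1 and 2 in the pup libraries. How reads from shared words were assigned is not known, so the counts of both genes are uncertain. The pseudogene's means were 2.04 ± 0.742 and 2.02 ± 1.29 CPM (SD, n = 3 each). Vmn2r-ps56 (chr7:41744706-41772910, minus strand) is annotated as an unprocessed pseudogene, yet its transcript holds an open reading frame of 2589 bases, as long as that of Vmn2r58, to which it was 97.6% identical. It was at 1.96, 2.42 and 3.13 CPM in the control libraries and at 3.32, 3.54 and 2.08 CPM in the pup libraries, a narrow spread for this set. Vmn2r58 was at 3.98 ± 2.42 and 3.82 ± 1.22 CPM (SD, n = 3 each). Of 19 tested pseudogenes that aligned to a receptor frame at 90% identity or more, 15 had a frameshift or an early stop and 4 had neither. Those 4 were Vmn2r-ps56, Vmn1r207-ps and the fragments Vmn2r-ps60 and Vmn2r-ps125.

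Among the other V1R pseudogenes, Vmn1r-ps24 (chr6:66752276-66760039, minus strand) had the highest mean, 4.63 CPM. It was at 3.92, 9.59 and 5.94 CPM in the control libraries and at 0, 2.34 and 5.98 CPM in the pup libraries, with a log2 fold change of -1.22 (SE 1.10, edgeR adjusted p = 0.675) that was -0.64 without pup replicate 1, -2.43 without pup replicate 3 and -2.78 with limma-voom. Vmn1r207-ps (chr13:22722717-22729629, minus strand), annotated as protein-coding with an open frame of 939 bases like that of Vmn1r209, was at 0, 5.83 and 2.19 CPM and at 0, 3.72 and 3.86 CPM. A library of each group was at 0, and the remaining pup values lay between the remaining control values. Vmn1r-ps126 (chr13:23056683-23057608) was at 0.862, 1.52 and 1.72 CPM in the control libraries and at 0, 2.90 and 4.25 CPM in the pup libraries. Vmn1r-ps84, whose deletion is shown above, was at 1.88, 0.986 and 2.34 CPM and at 0.483, 0.673 and 0.989 CPM. The lowest control library and the highest pup library were at nearly the same level, and the log2 fold change was -1.26 (SE 0.99, edgeR adjusted p = 0.626). Vmn1r177, which holds 50.3% of the words of Vmn1r-ps84, was at 2.63 ± 1.25 and 2.11 ± 0.349 CPM (SD, n = 3 each).

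Vmn1r-ps94, Vmn1r-ps99, Vmn1r-ps102, Vmn1r-ps127 and Vmn1r-ps64 lie wholly inside exons of an intact V1R gene on the same strand, so 100% of their words belong to that gene as well. Vmn1r-ps94 (chr13:22092119-22092576) lies in Vmn1r188. It had 22, 39 and 4 reads in the control libraries and 58, 92 and 33 in the pup libraries, while Vmn1r188 itself was given 10, 4 and 14 and then 10, 25 and 16. On the CPM scale the means of Vmn1r-ps94 were 1.95 ± 1.45 and 2.67 ± 0.899 (SD, n = 3 each). Vmn1r-ps99, inside Vmn1r191, had 0, 10 and 0 reads and then 0, 46 and 18, and Vmn1r191 had 11, 27 and 19 and then 0, 11 and 38. The counts of both genes in each pair are uncertain, because the annotation release used for counting is not given in the sources used here.

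Libraries differed in how many of the tested pseudogenes they missed. At 0 reads were 5, 0 and 3 of the 23 in the control libraries and 7, 0 and 0 in the pup libraries. The 7 in pup replicate 1 included Vmn1r-ps24 and Vmn2r-ps87, which had 66 to 121 reads in each of the other pup libraries. That library had more counts than any control library, yet it also had the most of all tested genes at 0, 639 of 15498 (4.12%, against 0.0645% to 2.63% in the others). Among 191 tested intact receptors 7 were at 0 there. Without it, 5 pseudogenes had every remaining pup library above every control library (Vmn2r-ps53, Vmn1r-ps47, Vmn1r-ps150, Vmn1r-ps126 and Vmn2r-ps46) and 1 below (Vmn2r-ps60), where 18.7% and 15.2% of genes tested did so. With that library left out, edgeR called 0 of the 24 pseudogenes then tested. Before adjustment 2 of them were higher (7.4% of all genes) and 0 lower (4.98%).

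Below the filter, the pseudogenes with the most reads were Vmn2r-ps119, Vmn2r-ps54, Vmn2r-ps130, Vmn1r-ps100 and Vmn1r-ps49. Vmn2r-ps119 (chr17:19141468-19176756), annotated as a polymorphic pseudogene, which is intact in some strains, had 0, 4 and 3 reads in the control libraries and 12, 54 and 37 in the pup libraries. Vmn2r-ps54 had 0, 5 and 5 and then 35, 21 and 12 reads, and Vmn1r-ps49 had 0, 6 and 2 and then 9, 27 and 3. These are reads before scaling, and the pup libraries were deeper. In CPM the groups of Vmn2r-ps54 overlapped, at 0, 0.448 and 0.781 and then 1.88, 0.744 and 0.593. Vmn2r-ps119 was at 0, 0.359 and 0.469 and then 0.643, 1.91 and 1.83 CPM. Vmn2r-ps130, annotated as protein-coding, had 10, 2 and 1 and then 0, 11 and 28. Vmn1r-ps100 (chr13:22298612-22299478, minus strand) had 48 of its 49 reads in pup replicate 1 and the remaining read in replicate 3, and shared 0% of its words with other genes. In all, 22 pseudogenes had reads in a single library and 12 had reads in all 6.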

How the data were processed

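The authors deposited whole-number read counts per Ensembl gene for 6 libraries, not normalized; the submitters' processing notes name GRCm38, and an aligner or counting tool was not given in the sources used here. Per the labels' protocols, lysates were immunoprecipitated for phosphorylated S6 and cDNA was made with a SMARTer low-input kit. Symbols came from GENCODE M21 (36639 of 38561 IDs matched). The test was edgeR 4.0.16 in R 4.3.3 on all genes (filterByExpr, minimum count 10 and total 15; TMM; group as the only term; Benjamini-Hochberg, threshold 0.05), checked on simulated counts. Standard errors came from the F statistic. DESeq2 1.42.0, limma-voom (limma 3.58.1), other scalings and filters, a replicate block and leaving out each library were tried. No replicates were alike within sampling noise (chi-square over its degrees of freedom was 86.2 to 300). Relatives were found with blastn 2.17.0 against the longest open reading frames of intact receptors, and frames were read from a local alignment in Biopython 1.88.

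The pseudogenes and lists were chosen with earlier results of these data known. Any tested pseudogene could be named, and values in every library were given for the 10 tested pseudogenes with the highest mean CPM, the 5 with the smallest p in each direction and the 5 with the most reads under the filter, with their relatives and neighbours. Vmn1r239-ps, Vmn1r-ps102, Vmn1r-ps127 and Vmn1r-ps64 were named after their values were seen.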

Additional observations from a re-analysis of the deposited data

How the results depend on the processing

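No pseudogene passed the adjusted threshold under any of the settings run, 0 higher and 0 lower in each. Of 207 fitted log2 fold changes of 15 named pseudogenes under alternatives, 187 kept their direction, and 10 of the 15 never turned. With the replicate block, Vmn1r207-ps turned to 0.064, Vmn2r-ps42 to -0.25 and Vmn1r-ps126 to -0.20. The block also moved Vmn2r-ps53 to 0.92, Vmn1r-ps24 to -2.31, Vmn2r-ps87 to -1.98 and Vmn2r-ps123 to -0.63, and it changed no call. Same-numbered libraries did not deviate together (correlations -0.035, 0.18 and 0.075), so the numbers were not taken as pairs. With limma-voom the values were 0.59 (Vmn1r207-ps), -0.062 (Vmn2r-ps42) and -0.57 (Vmn1r-ps126). With library totals only Vmn1r207-ps was at 0.26. Vmn2r-ps42, at 0.00 as reported, was at -0.046 with RLE, -0.024 with upper quartile scaling, -0.00047 with the stricter filter and -0.032 with DESeq2. With single libraries left out, Vmn2r-ps42 ran from -0.29 to 0.45, Vmn2r-ps82 from -0.67 to 0.056, Vmn1r207-ps from -0.67 to 1.32 and Vmn2r-ps123 from -3.16 to 0.15. The cause of these turns was not tested.

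The number of pseudogenes with reads was 80 and became 41 when at least 10 reads were asked for. The share of receptor reads changed by construction when pseudogenes were left out. It was 0.25% after control and 0.39% after pup exposure over pseudogenes under 10% shared words, 0.933% and 0.85% over V1R pseudogenes, and 1.74% after control exposure over V2R pseudogenes. Without Vmn2r-ps53, a setting chosen after seeing the data, it was 2.28% after control exposure and 1.67% after pup exposure. Also chosen then was leaving out pup exposure replicate 1 for the count of separated pseudogenes, which went from 1 to 5 of the 23 higher. The share of all genes tested that were separated upward went from 10.1% to 18.7%. With single libraries left out, the share ran from 2.55% to 2.78% after control exposure and from 2.06% to 3.04% after pup exposure. Bringing every library to the lowest depth moved the expected number of pseudogenes with reads from 80 to 75.3.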
